A study of Homo sapiens with 6 samples.

Results

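The genes described here are 7 targets that several steroid hormone receptors share: TSC22D3, FKBP5, ZBTB16, KLF9, SGK1, PER1 and NR3C1, of 12165 genes measured. They were chosen by their intensities on these same arrays, with gedunin set against DMSO 1 and 2, and every probe set annotated to such a gene alone was taken, which gave 14 of the 22215 probe sets. None of the 7 genes shared a probe set with another gene. Because the comparison of gedunin with DMSO was known when the genes were named, their own differences in that comparison are given as a description, with no p-value. The count of their probe sets past the threshold used for all probe sets is given once and supports nothing.

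The arrays came from LNCaP cells, a human prostate cancer line that responds to androgen, grown in RPMI with 10% fetal bovine serum. In the treated group, 3 cultures received 20 µM gedunin, a limonoid from neem and related trees, for 6 h. In the control group, 3 cultures received DMSO, the solvent, for 6 h. Total RNA of each culture was hybridised to 1 Affymetrix array, and the labels number the arrays of each group as biological replicates of this 1 line. No group is labelled as given a steroid or a receptor blocker.

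DMSO 3, by its label a culture of LNCaP cells, lacked their expression profile and was kept apart. On it, 5 of 8 measured luminal prostate genes stood at least 8-fold below the mean of DMSO 1 and DMSO 2, and their summed intensity was 207, against 13220 to 13860 on the gedunin arrays and 14140 and 14410 on DMSO 1 and 2. Of 10 measured leukocyte genes, 8 stood at least 8-fold above that mean. Their summed intensity was 18730 on DMSO 3, against 206 to 213 on the gedunin arrays and 209.5 and 219 on DMSO 1 and 2. Between gedunin and DMSO 1 and 2, limma called 0 of these leukocyte genes (0 at an unadjusted p of 0.05). Of the 8 luminal genes, KRT8 (0.34) and KRT18 (0.47) rose and TMPRSS2 (-0.70), HOXB13 (-0.39) and SPDEF (-0.89) fell on the log2 scale. Of 6 measured stromal or basal genes, COL1A1 (0.75) rose and VIM (-0.52) fell. These calls are for the probe set of highest mean. Among other probe sets, 2 of 3 of FOLH1 and 1 of 4 of SPDEF were called lower. Those of KRT8, TMPRSS2 and COL1A1 were not called. Gedunin arrays had summed stromal and basal levels of 266 to 273, where DMSO 1 had 261 and DMSO 2 had 267. The part of these changes in the results below was not tested. Because of DMSO 3's profile, values below compare gedunin 1, 2 and 3 with DMSO 1 and 2, and DMSO 3 is given beside them. Median intensities lay between 31.1 and 31.8 on these 5 arrays and lower quartiles between 19.4 and 19.9, and precision is limited by how few arrays there are. In such bulk RNA, fewer cells that express a gene and less of its RNA per cell cannot be told apart.

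Receptors for glucocorticoids, mineralocorticoids, progestins and androgens are close relatives that bind the same kind of DNA element, an inverted repeat of a hexamer. Before hormone binds, they are held ready by HSP90, HSP70 and cochaperones. The genes they share are therefore often read as a sign of receptor activity, whichever receptor a tissue carries. LNCaP cells are known for an androgen receptor with broadened steroid specificity and for little or no glucocorticoid receptor.

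Among the 7 genes, TSC22D3 was higher with gedunin, ZBTB16 and KLF9 were lower, SGK1 was modestly higher, and FKBP5, PER1 and NR3C1 differed little. The genes thus did not share a direction. Of the 14 probe sets, 6 passed limma's adjusted p of 0.05, 3 higher and 3 lower, where 15.3% of all probe sets passed (7.37% higher, 7.91% lower, and 1.40% in either direction with all 6 arrays). These counts come from the comparison that chose the genes. The gedunin arrays and DMSO 1 and 2 did not overlap for 8 of the 14, with 4 higher and 4 lower, against 42.8% of all probe sets. The median log2 difference of the 14 was 0.04, and that of all probe sets was -0.01.

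**Figure D1:**
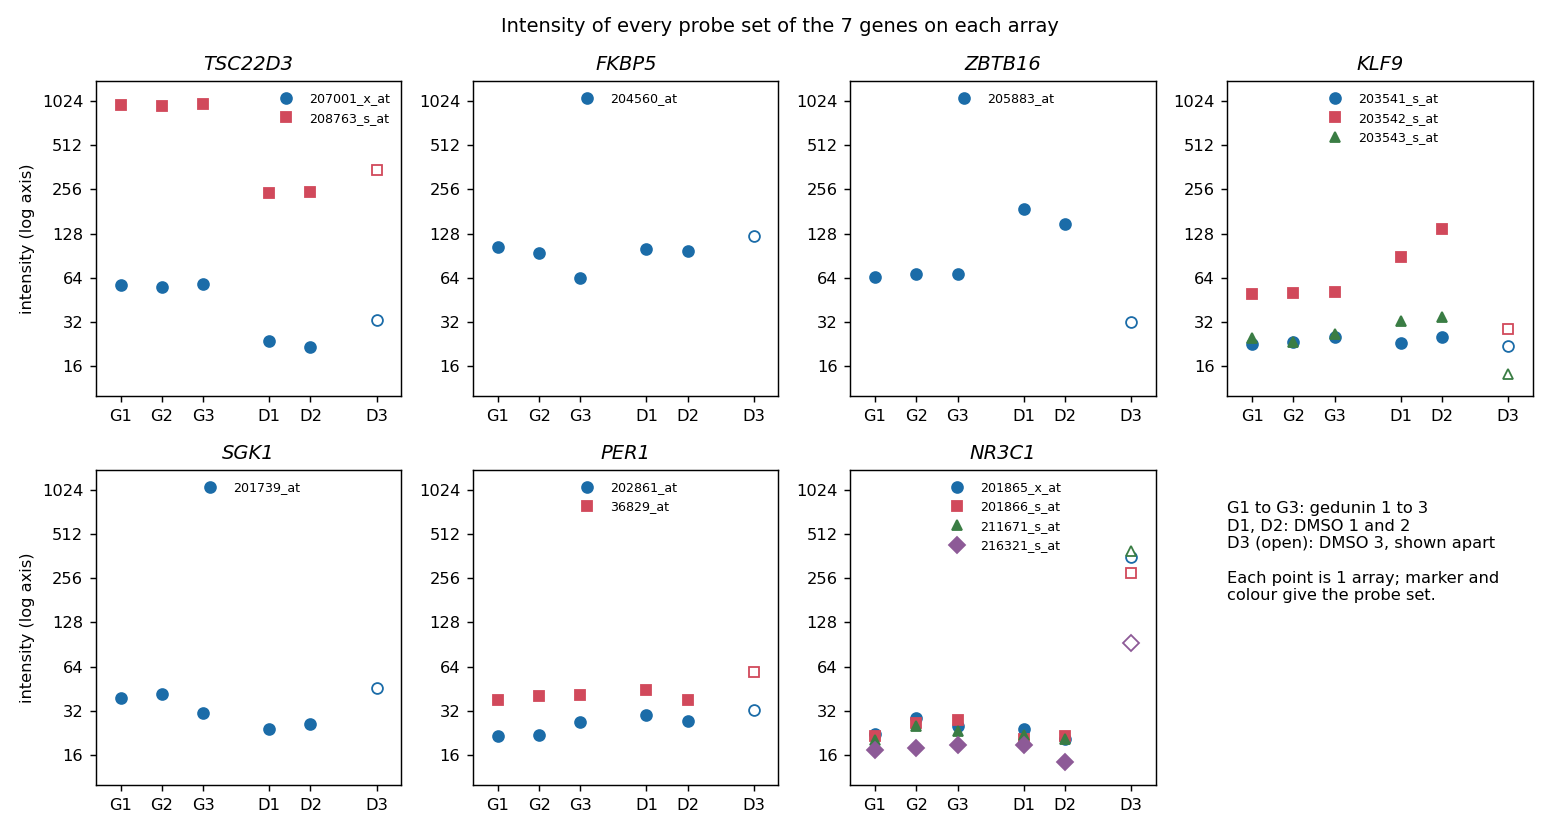
Intensity (log axis) of every probe set of the 7 genes on each array, with gedunin arrays at the left, DMSO 1 and 2 next and DMSO 3 (open) at the right. The TSC22D3 points sit higher with gedunin, the ZBTB16 points and those of 203542_s_at of KLF9 sit lower, and the 4 NR3C1 probe sets are high on DMSO 3 alone.

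NR3C1 encodes the glucocorticoid receptor itself, which also regulates its own gene. Its probe set 201865_x_at read 22.1, 28.5 and 25.3 on the gedunin arrays, against 24.1 and 20.7 on DMSO 1 and 2. Probe set 201866_s_at read 21.6, 26.5 and 27.5 with gedunin, against 20.4 and 21.4 with DMSO. Probe set 211671_s_at read 20.3, 25.3 and 23.3 with gedunin, against 21.9 and 20.6 with DMSO. The groups overlapped for 201865_x_at and 211671_s_at, while for 201866_s_at each gedunin value lay narrowly above both DMSO values. The remaining probe set, 216321_s_at, read 17.4, 17.8 and 18.6 with gedunin, against 18.6 and 14.3 with DMSO.

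Every one of these values lay below the median of its array. Log2 differences of gedunin from DMSO were 0.17 ± 0.12, 0.26 ± 0.12, 0.10 ± 0.11 and 0.13 ± 0.12 in the order given (± is limma's moderated standard error here and below, n = 3 and 2 arrays). The table holds no detection calls, so a low level cannot be told from none. On the array labelled DMSO 3 the same probe sets read 355, 279, 389 and 93.2, which is 15.9-fold, 13.4-fold, 18.3-fold and 5.70-fold above the mean of DMSO 1 and 2. At least 2-fold higher values on DMSO 3 were seen for 8.13% of all probe sets. With that array in the DMSO group, the log2 differences turned to -1.16 ± 1.13, -0.98 ± 1.06, -1.29 ± 1.19 and -0.70 ± 0.72.

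The mineralocorticoid receptor gene NR3C2 read 21.4, 21.1 and 21.0 with gedunin, against 21.8 and 19.9 with DMSO. The progesterone receptor gene PGR read 16.2, 15.8 and 14.99 with gedunin, against 15.8 and 14.0 with DMSO. Neither passed the test (limma adjusted p = 0.894 and 0.692), and all values of both lay below the array medians. The androgen receptor gene is not analysed here.

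TSC22D3 encodes GILZ, a leucine zipper protein known for carrying part of the anti-inflammatory action of glucocorticoids. Its brighter probe set, 208763_s_at, read 961, 948 and 973 on the gedunin arrays, against 240.2 and 244 on DMSO 1 and 2. All gedunin arrays stood far above both DMSO arrays, and arrays of a group lay within 0.04 of each other on the log2 scale. The log2 difference was 1.99 ± 0.08, or 3.96-fold. The second probe set, 207001_x_at, read 57.6, 55.5 and 57.7 with gedunin, against 23.6 and 21.8 with DMSO.

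That is a log2 difference of 1.33 ± 0.09, or 2.51-fold, in the same direction as the brighter probe set. Its DMSO levels were below the array medians, where RMA values compress folds. DMSO 3 read 346 and 33.1 for the 2 probe sets, which lies between the gedunin arrays and the other DMSO arrays. With DMSO 3 counted as a control, the differences were 1.82 ± 0.16 and 1.15 ± 0.17. TSC22D3 was thus higher with gedunin than on DMSO 1 and 2. It was also higher than on DMSO 3, but that array lacked the LNCaP profile and is no like control. Among all probe sets, 1.56% were at least 2-fold higher with gedunin.

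A stretch before a start of TSC22D3 is shown because it holds a pair of TGACG matches, the core of the cAMP response element (CRE), beside each other. It lies at chrX:107717093-107717142 on the minus strand of GRCh38.p14 (RefSeq), from base -80 to base -31 of that start. Capitals mark TGACG and the overlapping antioxidant element core TGACNNNGC.
TSC22D3: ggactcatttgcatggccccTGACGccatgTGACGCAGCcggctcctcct

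FKBP5 encodes the HSP90 cochaperone FKBP51, which lowers hormone binding by the glucocorticoid receptor and so closes a feedback loop. Its single probe set, 204560_at, read 103.5, 94.3 and 64.3 on the gedunin arrays, against 100.5 and 96.96 on DMSO 1 and 2. Gedunin 1 lay above both DMSO arrays, and gedunin 2 and 3 lay below them, so the groups overlapped. The log2 difference was -0.21 ± 0.17.

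Gedunin 3 alone set this difference, since without it the value was 0.0013 on the log2 scale. The gedunin arrays spanned 0.69 on that scale for FKBP5 and DMSO 1 and 2 spanned 0.05. Over all probe sets, the root mean square log2 distance of gedunin 3 from the other gedunin arrays was 0.172. It was 0.16 for gedunin 1 and 0.155 for gedunin 2. The cause of the low FKBP5 value on gedunin 3 was not tested. DMSO 3 read 123.

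ZBTB16 encodes PLZF, a BTB zinc finger repressor that glucocorticoids, progestins and androgens raise. Its single probe set, 205883_at, read 64.3, 68.1 and 67.7 on the gedunin arrays, against 188 and 149.7 on DMSO 1 and 2. The gedunin arrays were close to each other and all below both DMSO arrays, which themselves spanned 0.33 on the log2 scale. The log2 difference was -1.33 ± 0.11, so the level with gedunin was 0.398 of that with DMSO.

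Among all probe sets, 0.495% were at least 2-fold lower with gedunin. DMSO 3 read 31.9, below every other array. With it in the control group, the difference was -0.53 ± 0.68.

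KLF9 encodes a Krüppel-like zinc finger protein of the GC-box binding kind, which glucocorticoids, progesterone and thyroid hormone raise. Its brightest probe set, 203542_s_at, read 49.4, 50.7 and 51.55 on the gedunin arrays, against 88.3 and 137 on DMSO 1 and 2. All gedunin arrays were lower, yet DMSO 1 and 2 differed from each other by 0.64 on the log2 scale. The difference was -1.12 ± 0.16, with a range of -1.44 without DMSO 1 to -0.81 without DMSO 2. Probe set 203543_s_at read 25.1, 23.4 and 26.6 with gedunin, against 32.7 and 34.6 with DMSO.

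That is a log2 difference of -0.43 ± 0.09, in the same direction but smaller. The gedunin values of 203543_s_at lay below the array medians. Probe set 203541_s_at read 22.7, 23.3 and 25.2 with gedunin, against 23.0 and 25.5 with DMSO, so the groups overlapped there. Its log2 difference was -0.03 ± 0.09, and all of its values lay below the array medians. DMSO 3 read 28.8, 14.1 and 21.8 for 203542_s_at, 203543_s_at and 203541_s_at. With DMSO 3 in the control group, the differences of 203542_s_at and 203543_s_at were -0.48 ± 0.57 and -0.01 ± 0.37.

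PER1 encodes a repressor of the circadian clock that glucocorticoids induce directly. Probe set 36829_at read 37.6, 40.3 and 41.0 on the gedunin arrays, against 44.1 and 38.0 on DMSO 1 and 2. The groups overlapped, and the log2 difference was -0.05 ± 0.10. Probe set 202861_at read 21.5, 21.9 and 26.7 with gedunin, against 29.9 and 27.3 with DMSO. Each gedunin array lay below both DMSO arrays there, by a log2 difference of -0.30 ± 0.11. All gedunin, DMSO 1 and DMSO 2 values of 202861_at lay below the array medians. DMSO 3 was the highest array for both probe sets, at 58.4 and 32.6.

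A stretch of the PER1 promoter and a stretch of an FKBP5 promoter are shown for the E-box CACGTG, the element through which the clock factors CLOCK and BMAL1 drive PER1. They lie at chr17:8152535-8152584 (PER1, bases -180 to -131) and chr6:35689106-35689155 (FKBP5, bases -240 to -191), both on the minus strand of GRCh38.p14 from RefSeq. Capitals mark CACGTG and, in PER1, also TGACNNNGC.
PER1: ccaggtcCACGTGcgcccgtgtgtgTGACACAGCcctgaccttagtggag
FKBP5: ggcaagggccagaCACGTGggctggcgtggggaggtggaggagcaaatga

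SGK1 encodes a serine/threonine kinase that corticosteroids induce and that raises sodium channel activity at the cell surface. Its single probe set, 201739_at, read 39.2, 41.6 and 31.0 on the gedunin arrays, against 24.1 and 26.2 on DMSO 1 and 2. All gedunin arrays were above both DMSO arrays, with gedunin 3 nearest to them. The log2 difference was 0.56 ± 0.13, or 1.47-fold, from DMSO levels below the array medians. DMSO 3 read 46.0, above every gedunin array. With that array as a control the difference was 0.27 ± 0.28.

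**Figure D2:**
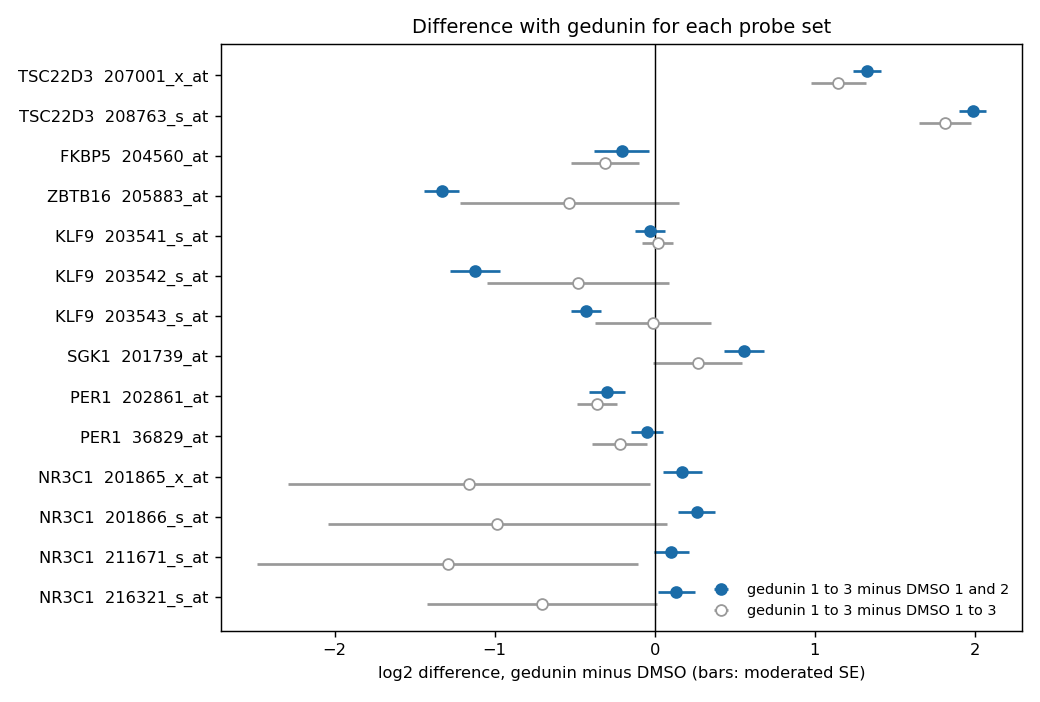
Log2 difference, gedunin minus DMSO, of each of the 14 probe sets, with moderated standard errors as bars. Filled points use DMSO 1 and 2 and open points all 3 DMSO arrays. TSC22D3 reaches 1.99 and ZBTB16 -1.33 in the first, while the NR3C1 points turn negative in the second.

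The RefSeq table of promoters, each with 250 bases before and 50 bases after a transcript start (GRCh38.p14), held 18 windows of 6 of the 7 genes. TSC22D3 had 4 of them, FKBP5 had 2, KLF9 and PER1 had 1 each, SGK1 had 3 and NR3C1 had 7, and ZBTB16 matched none. Several windows of a gene overlap. The steroid receptor inverted repeat, searched as GNACA and TGTNC with 3 bases between them, was in 0 of the 18 windows and in 0.39% of all 35116. Its hexamer TGTTCT, searched on both strands, was in 2 of the 18 and in 14.8% of all. A match is a description of letters and no evidence of binding, and elements that lie farther from a start are outside these windows.

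The hexamer matches of FKBP5 and SGK1 are shown because they were the windows with a steroid receptor motif. Both read on the opposite strand, as AGAACA. The FKBP5 match spans bases 1 to 6 after a start, in a stretch at chr6:35728577-35728606, and the SGK1 match bases 6 to 11, in a stretch at chr6:134177846-134177875, both on the minus strand of GRCh38.p14.
FKBP5: gctccctactccaccactaccccAGAACAa
SGK1: ataaagtggggttcataacAGAACAgggat

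The heat shock element, searched as GAA, TTC and GAA with 2 bases between neighbours, was in 0 of the 18 windows and in 0.49% of all. The full CRE TGACGTCA was in 0 of them and in 1.85% of all, and its core TGACG, which every full match contains, was in 6 windows, of TSC22D3 and NR3C1, and in 24.6% of all. The E-box CACGTG was in 2 windows and in 7.26% of all. The antioxidant element core TGACNNNGC was in 2 windows, of TSC22D3 and PER1, and in 13.3% of all. The GC box GGGCGG, bound by SP and KLF proteins, was in 11 windows of 5 genes and in 45% of all. The KLF9 window held no match to any of the 8 motifs, so no motif searched was common to the 6 genes.

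**Figure D3:**
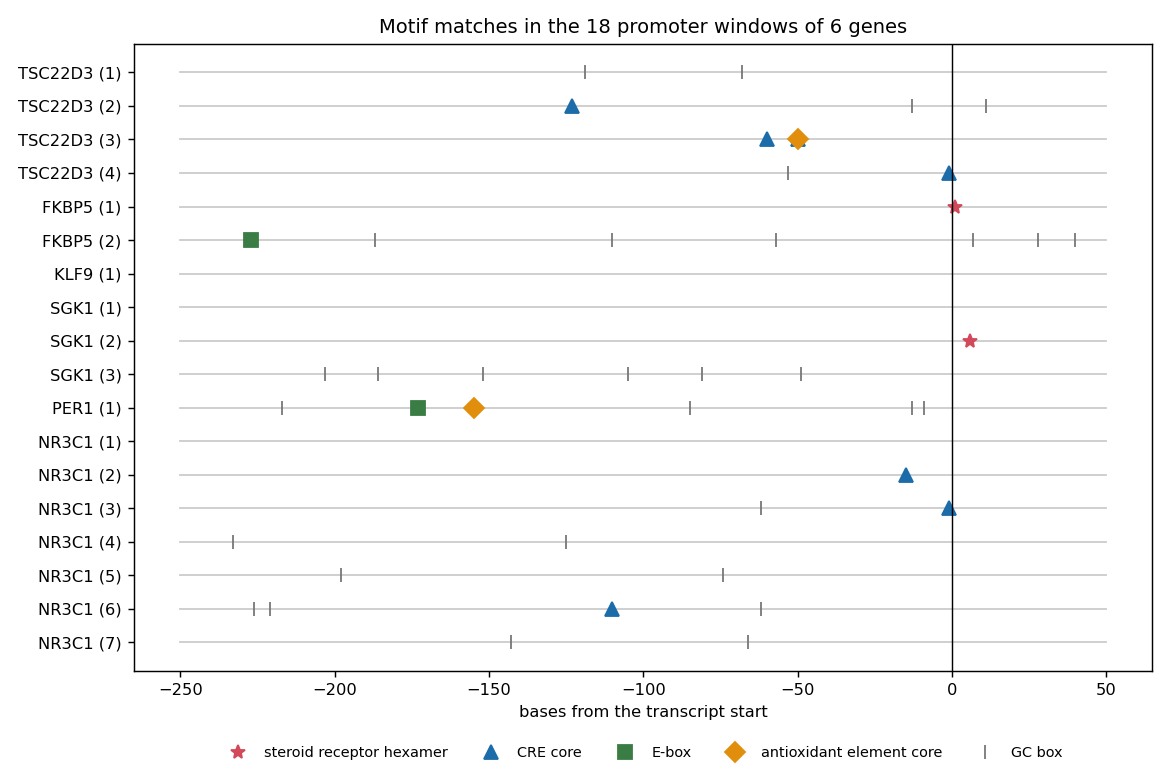
Matches of 5 motifs in the 18 RefSeq promoter windows, by distance in bases from the transcript start (0 line); each row is a window, numbered within its gene. The 2 steroid receptor hexamers lie just after a start of FKBP5 and of SGK1, and the CRE cores lie in windows of TSC22D3 and NR3C1.

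Other genes that steroid receptors are known to raise were counted from a list of 50, of which 46 were measured. In the fit across all probe sets, 10 rose and 4 fell, against 8.24% of all genes higher and 9.36% lower (17.6% called in all). The median log2 difference of the list was -0.02, as it was for all genes. Many listed genes read below the array medians on all 5 arrays, among them PDK4, SCNN1G, ORM1, ANGPTL4, TNFAIP3, PCK1, CDKN1C, SERPINA3, LCN2 and IGFBP1. So did TAT, which is among the genes that rose. The list median includes these dim genes, for which the lack of a call need not mean an expressed and unchanged gene. S100P, a calcium-binding protein, read 279, 301 and 311 with gedunin, against 36.2 and 43.4 with DMSO. It rose by 2.90 ± 0.10 on the log2 scale (limma adjusted p = 9.9e-08). DDIT4, an inhibitor of mTOR signalling that many stresses also raise, read 3846, 3585 and 3439 with gedunin, against 478 and 520.3 with DMSO.

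DDIT4 rose by 2.86 ± 0.09 (limma adjusted p = 5.15e-08). For S100P and DDIT4, as for TSC22D3, the gedunin arrays stood far above the DMSO arrays. ZFP36, which destabilises AU-rich mRNAs, rose by 1.73 ± 0.14 (limma adjusted p = 3.08e-05), and the transcription factor gene FOXO1 by 1.43 ± 0.09 (adjusted p = 6.48e-06).

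Of the genes that fell, RHOB, a small GTPase, read 238.5, 252 and 223 with gedunin, against 555 and 655 with DMSO. Its log2 difference was -1.34 ± 0.10 (limma adjusted p = 1.89e-05). NFKBIA, the inhibitor of NF-kB that glucocorticoids are known to raise, fell by 0.75 ± 0.12 (adjusted p = 0.00168), CRISPLD2, a secreted protein, by 0.86 ± 0.13 (adjusted p = 0.00186), and MAOA, the monoamine oxidase that androgen and glucocorticoids raise, by 0.44 ± 0.09 (adjusted p = 0.00761). CRISPLD2 read below the array medians on the gedunin arrays. With all 6 arrays, 2 members of the list rose (S100P and DDIT4) and 0 fell (1 lower at an unadjusted p of 0.05), where 1.68% of all genes were called, and MAOA turned to 1.84 ± 1.93. Centring on GAPDH and ACTB gave 8 falls in place of 4, and without probe sets of the suffixes _x_at and _s_at 6 members rose. The list was written with earlier results of these arrays known.

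Most of the chaperones that assemble steroid receptors rose. Of 19 listed genes 18 were measured, 13 rose and 0 fell by limma (1 lower at an unadjusted p of 0.05), against 8.24% of all genes higher, with a median log2 difference of 0.92. With all 6 arrays 9 rose and 0 fell. HSPA1A (2.63 ± 1.05, limma adjusted p = 0.419) and FKBP4 (1.6 ± 0.37, adjusted p = 0.152) were not called there. DNAJB1, an HSP40 that feeds clients to HSP70, rose by 3.63 ± 0.09 (limma adjusted p = 9.23e-09), DNAJA1, another HSP40, by 1.70 ± 0.08 (adjusted p = 8.29e-07), and STIP1, the adaptor that joins HSP70 to HSP90, by 1.65 ± 0.09 (adjusted p = 1.26e-06). HSPA1A, the inducible HSP70, rose by 3.86 ± 0.17 (adjusted p = 3.88e-07) from DMSO levels below the array medians. It read 18.15 and 27.4 on DMSO 1 and 2 and 283 on DMSO 3. Its near-identical copy HSPA1B may share signal with it. FKBP4, the relative of FKBP5 that favours receptor transport, rose by 1.17 ± 0.09 (adjusted p = 1.31e-05) and read 2039, 1984 and 2053 with gedunin, against 878 and 921 with DMSO. FKBP4 thus rose on arrays where FKBP5 overlapped between the groups, and the difference between the 2 genes was not tested. Without probe sets of the suffixes _x_at and _s_at, which leaves fewer genes measured, 6 chaperone genes rose.

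Among the other steroid receptors and their coregulators, 20 of 24 listed genes were measured, 2 rose and 3 fell, with a median of 0.02. The share called was 25%, against 17.6% of all genes. The coactivator gene NCOA2 rose by 0.43 ± 0.10 (limma adjusted p = 0.0188) and NCOA6 by 0.34 ± 0.09 (adjusted p = 0.0258). The chromatin remodelling ATPase gene SMARCA4 fell by 0.59 ± 0.09 (adjusted p = 0.00207), the pioneer factor gene FOXA1 by 0.57 ± 0.11 (adjusted p = 0.00575) and the corepressor gene NRIP1 by 0.42 ± 0.11 (adjusted p = 0.0249). Without DMSO 1 or without gedunin 1 the count of rises was 0, and without DMSO 2, gedunin 2 or gedunin 3 it was 1. Without probe sets of the suffixes _x_at and _s_at, SMARCA4 stood at -0.17 and was not called (limma adjusted p = 0.388), and the mean of all its probe sets gave -0.40 (adjusted p = 0.0055). With all 6 arrays FOXA1 turned to 0.49 ± 0.90 and NRIP1 to 0.19 ± 0.53, and limma called 0 of the list (1 higher and 1 lower at an unadjusted p of 0.05).

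Clock genes other than PER1 moved upward where their probe set of highest mean passed. Of 22 listed genes 18 were measured, 7 rose and 0 fell by limma (1 lower at an unadjusted p of 0.05). Among all genes 8.24% were higher and 9.36% lower. The median log2 difference of the list was 0.24. For CSNK1D, the other probe set, not its brightest, was called lower. NFIL3, a repressor of D-box genes, read 396, 429 and 395 with gedunin, against 163 and 214 with DMSO, and rose by 1.12 ± 0.12 (limma adjusted p = 1.81e-04). DBP, an activator of the same genes, rose by 1.00 ± 0.11 (adjusted p = 1.84e-04), NR1D2, a nuclear receptor that represses BMAL1, by 0.98 ± 0.12 (adjusted p = 3.19e-04), and BMAL1 itself by 0.93 ± 0.12 (adjusted p = 5.77e-04).

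The other 3 rises were BHLHE40 (0.77), CRY1 (0.37) and PER3 (0.34), named after their values were seen. BHLHE40 turned to -0.42 ± 1.01 with all 6 arrays, where DMSO 3 read 374, and without DMSO 1 or without DMSO 2 neither CRY1 nor PER3 passed. PER2, the closest relative of PER1 in the loop, read 99.98, 102 and 87.6 with gedunin, against 90.7 and 75.5 with DMSO and was not called (0.22 ± 0.11, limma adjusted p = 0.245). With all 6 arrays 1 clock gene rose, DBP. On the probe sets that remain when suffixes _x_at and _s_at are dropped, 3 rose and 1 fell, and DBP turned to -0.17 (limma adjusted p = 0.323).

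Of 31 listed relatives of the 7 genes by family, 28 were measured, 3 rose and 2 fell, with a median of -0.03. The share called, 17.9%, was near the 17.6% of all genes. Besides FKBP4, TSC22D2 rose by 0.46 ± 0.11 (limma adjusted p = 0.0198) and FKBP11, an FKBP of the ER, by 0.38 ± 0.09 (adjusted p = 0.0176). No other probe set of TSC22D2 (3) or FKBP11 (1) was called. The mean of all probe sets was not called either, at 0.18 for TSC22D2 (limma adjusted p = 0.122) and 0.296 for FKBP11 (adjusted p = 0.0657). TSC22D1 fell by 0.47 ± 0.09 (adjusted p = 0.00616) and ZBTB25 by 0.59 ± 0.13 (adjusted p = 0.0142). Without DMSO 1 the counts were 1 and 1, without DMSO 2 they were 2 and 0, and without gedunin 1 they were 1 and 2. With all 6 arrays limma called 0 (2 higher and 1 lower at an unadjusted p of 0.05), and TSC22D1 turned to 1.26 ± 1.47.

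Within the TSC22 family, TSC22D3 was thus 3.96-fold higher on its brighter probe set, while TSC22D1 read 461, 472 and 506 with gedunin, against 640.3 and 691 with DMSO. The kinases SGK2 (-0.21 ± 0.10) and SGK3 (0.20 ± 0.14) were not called, and neither were KLF10 (-0.10 ± 0.12), KLF11 (-0.14 ± 0.10) and KLF13 (-0.16 ± 0.09), relatives of KLF9. Of these, only KLF10 read above the array medians. All values of SGK2, SGK3, KLF11 and KLF13 in this comparison lay below them. For those genes the lack of a call need not mean an expressed and unchanged gene.

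In the SGK1 pathway, 13 of 15 listed activators, ligases and substrates were measured, and 1 rose and 1 fell. The share called was 15.4%, near the 17.6% of all genes. PDPK1, the kinase that activates SGK1, rose by 0.37 ± 0.11 (limma adjusted p = 0.0404), and MAPKAP1, a subunit of the mTOR complex that primes SGK1, fell by 0.45 ± 0.10 (adjusted p = 0.0168). Without DMSO 1 or DMSO 2 neither passed, and without gedunin 1 or gedunin 2 PDPK1 did not. Neither of the 2 other probe sets of PDPK1 was called, and the mean of all its probe sets gave 0.138 (limma adjusted p = 0.228). For NEDD4L and NDRG2, which were not called, a probe set other than the brightest was called lower. NDRG1, an SGK1 substrate and itself an androgen target, read 129, 146 and 161 with gedunin, against 144 and 151 with DMSO. NDRG1 thus overlapped between the groups (-0.03 ± 0.11).

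**Figure D4:**
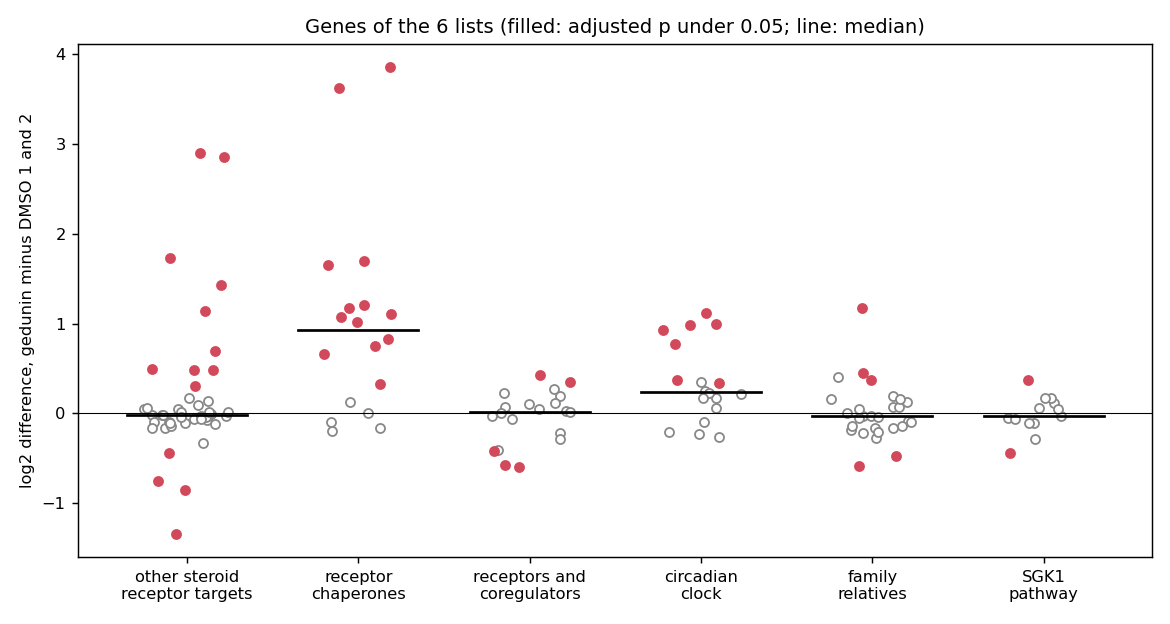
Log2 difference, gedunin minus DMSO 1 and 2, of each measured gene of 6 lists (filled, limma adjusted p under 0.05; open, not called; line, median of the list). Receptor chaperones lie highest, with a median of 0.92, and other steroid receptor targets have called genes on both sides of 0.

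For the members at least 2-fold apart, the genes with the most similar profile were found by Euclidean distance between log2 deviations from the mean of DMSO 1 and 2, over 5 arrays and 12158 genes. Nearest to TSC22D3 were CLGN, an ER chaperone gene (distance 0.08), SLC1A4, a neutral amino acid transporter gene (0.13), and DBNDD1 (0.15). CLGN read 314, 296 and 317 with gedunin, against 80.5 and 77.8 with DMSO. Nearest to ZBTB16 were the ribosome assembly gene RRS1 (0.26), CYREN, a regulator of DNA end joining (0.26), and PHF20 (0.28). Nearest to KLF9 on 203542_s_at were the hyaluronidase gene HYAL2 (0.25), the ribosome biogenesis genes BYSL (0.25) and GNL3L (0.33). These profiles carry 2 conditions, so likeness here says mainly that a gene differed by the same amount.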

How the data were processed

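Per the submitters' processing notes, the deposited intensities were produced by RMA, whose version is not given in the sources used here. The method subtracts background, equalises the arrays by quantiles and combines the probes of a set, and it compresses folds of dim probe sets. The table covers 22215 probe sets on a linear scale. Log2 was taken. Genes were assigned from the platform annotation supplied, in which 19724 named 1 gene, 568 several and 1923 were not listed. A gene was represented by its probe set of highest mean over 5 arrays. Gedunin 1 to 3 were compared with DMSO 1 and 2 by limma 3.58.1 (R 4.3.3; lmFit, eBayes), with Benjamini-Hochberg adjustment over all probe sets and a threshold of 0.05. The fit was tested on simulated data.

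The 7 genes, the arrays compared and the 6 lists of other genes were chosen with earlier results of these data known. In each list up to 4 called genes with the largest rise and 4 with the largest fall were named, and for members at least 2-fold apart the 3 nearest genes. Lists share FKBP4, FOXO3, SCNN1A and BCL6. P-values measure the spread between arrays of 1 cell line. The alternatives tried are listed with their effect in the closing section.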

Additional observations from a re-analysis of the deposited data

Results flagged for a closer look

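The array labelled DMSO 3, which the comparison did not use, carried signal of the glucocorticoid receptor gene NR3C1 above the level of the other DMSO arrays. Its 4 probe sets read 355 (201865_x_at), 279 (201866_s_at), 389 (211671_s_at) and 93.2 (216321_s_at), each at least 2-fold above DMSO 1 and DMSO 2. On the same array the summed leukocyte markers read 18730 and the summed luminal prostate markers 207. Their part in the NR3C1 signal was not tested.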

How the results depend on the processing

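Of the values that answer a comparison, 233 were recomputed under other settings than leaving out an array, and 166 stayed within the replicate spread or 1.5-fold of the count. With all 6 arrays, called probe sets were 252 higher and 60 lower, in place of 1638 and 1758, and called genes 161 and 43, in place of 1003 and 1139. Lists then had rises and falls of 2 and 0 (other steroid receptor targets), 0 and 0 (receptors and coregulators, relatives and SGK1 pathway each), and 1 and 0 (clock). The counts stand on few arrays, so a loss there need not be a smaller effect, and the cause was not tested beyond the values of DMSO 3 given above. Members moved to 1.82 (TSC22D3), -0.533 (ZBTB16), -0.478 (KLF9), 0.268 (SGK1), -0.219 (PER1) and -1.16 (NR3C1). Signs turned for FOXA1 (0.487), MAOA (1.84), NRIP1 (0.194), TSC22D1 (1.26) and BHLHE40 (-0.418).

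Centring on GAPDH and ACTB moved the median of all probe sets to -0.18 and gave 1041 higher and 5226 lower probe sets and 652 and 3139 genes. ACTB itself read 13255, 12559 and 12655 with gedunin, against 9921 and 10630 with DMSO, so small directions depend on the reference chosen. Lists then had 8 falls (other targets), 3 (clock), 1 (chaperones), 0 rises and 6 falls (coregulators), 1 and 8 (relatives) and 0 and 2 (SGK1 pathway). TSC22D3 was then 1.82, ZBTB16 -1.5 and PER1 -0.218. Centring on the median put TSC22D3 at 2.01, quantile normalization of 5 arrays at 1.96, and log2 of the value plus 16 at 1.92, with ZBTB16 at -1.15 and SGK1 at 0.368. The mean of all probe sets gave 1.66 (TSC22D3), -0.527 (KLF9) and -0.173 (PER1), 1 fall among clock genes, 1 rise among relatives and 0 rises and 2 falls in the SGK1 pathway.

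A threshold of 0.01 left 1021 and 848 probe sets, 651 and 557 genes, 0 rises among coregulators, 1 and 1 relatives, and 0 and 0 SGK1 pathway genes. Dropping suffixes _x_at and _s_at, with fewer probe sets tested, left 714 and 872 probe sets, 573 and 701 genes, 6 rises among other targets, 6 among chaperones, 3 and 1 clock genes and 0 and 1 relatives, with DBP at -0.173, and SMARCA4 (-0.168), TSC22D2 (0.185) and FKBP11 (0.215) were no longer called. A filter on dim probe sets kept 7 of the 14 member probe sets and none of NR3C1, and the values and counts it gave stayed within the limits above. So did the counts by eBayes with trend and robust, though CRY1 and PER3 lost their calls there, and it was not run for member values.

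Whether the replicate numbers pair the arrays cannot be decided here, because deviations of DMSO 1 and 2 from their mean are mirror images. Deviations of gedunin 1 correlated at -0.03 with those of DMSO 1 and at 0.03 with those of DMSO 2. For gedunin 2 the values were -0.04 and 0.04. With a replicate block, 1480 and 1451 probe sets and 903 and 950 genes were called, and 1 coregulator rose. Gedunin 3 had no DMSO array in its block, so these differences rest on gedunin 1 and 2 against DMSO 1 and 2. FKBP5 was 0.00126 with the block, the same value as without gedunin 3.

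Leaving out each array in turn gave 942 to 1536 higher and 811 to 1528 lower probe sets, and 601 to 939 and 528 to 1005 genes. The lowest counts came without DMSO 1 or 2, where 863 and 811 probe sets were lower. List ranges were 7 to 9 rises and 3 to 5 falls (other targets), 12 rises (chaperones), 0 to 1 and 2 to 3 (coregulators), 5 to 7 rises (clock), 1 to 4 and 0 to 2 (relatives), and 0 to 1 and 0 to 1 (SGK1 pathway). Member ranges were 1.98 to 2 (TSC22D3), -0.343 to 0.00126 (FKBP5), -1.49 to -1.17 (ZBTB16), -1.44 to -0.805 (KLF9), 0.473 to 0.687 (SGK1), -0.156 to 0.0598 (PER1) and 0.0616 to 0.284 (NR3C1). The second TSC22D3 probe set ranged over 1.27 to 1.39.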
